A study of Saccharomyces cerevisiae with 8 samples.

Results

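Native chromosome XI of Saccharomyces cerevisiae was examined within 50 kb on either side of the site at which a synthetic locus of about 100 kb was inserted. Members were the native CAGE-seq peaks whose 5′ end lay no more than 50 kb from that site (R64 assembly), on either strand and in any of 8 libraries. There were 229 such peaks out of 24914 native peaks summed over the libraries, and overlapping peaks on the same strand merged into 57 regions of 6963 in the nuclear genome. The first bases of 50 protein-coding genes and 2 tRNA genes also lie in this stretch.

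The parent of all strains was BY4741, a laboratory haploid of mating type a with deletions in HIS3, LEU2, MET17 and URA3. A strain held 1 of 2 synthetic loci, namely HPRT1, made after human genomic DNA, or HPRT1R, in which that base order is reversed but not complemented. The locus was carried on an episome, a yeast artificial chromosome, or had been integrated into chromosome XI, and each of the 4 combinations had 2 replicate libraries. Integrated strains had been made from episome strains by placing a URA3 landing pad at YKL162C-A and exchanging it for the locus with Cre recombinase, so in episome strains this stretch was the native chromosome. The medium was SC-Leu for episome strains but YPD for integrated strains, and all were taken at mid-log phase at 30 °C. Genomic context and medium therefore cannot be told apart in any comparison below. Per the study's methods the replicates of a strain came from 2 colonies, and p-values measure only the spread between these libraries.

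CAGE-seq captures capped 5′ ends of RNA, so that a peak marks where RNA polymerase II transcripts begin. A gene's own transcripts begin shortly upstream of its start codon, whereas peaks within genes or on the opposite strand mark internal and antisense starts. Yeast genes lie close together, and neighbours often share a divergent promoter or face each other across a short terminator region. YKL162C-A is known as a safe harbour, a site where inserted DNA is tolerated by the cell. Peak height is the read pileup at the summit, scaled to 1000000 reads aligned on either strand (RPM). Libraries had about 6480000 to 8850000 aligned reads. The lowest peak called in a library was 13.7 to 14.6 RPM on the reverse strand and 8.48 to 9.65 RPM on the forward strand, so that weaker starts are not represented. As a check of the strain, 8 mating-type genes were read. Of the 4 a-specific genes, MFA1 and MFA2, which encode the a-factor pheromone, had a start peak in all 8 libraries, STE2 in 2 (10.4 and 15.0 RPM) and BAR1 in none. Of the 4 alpha-specific genes, MF(ALPHA)1 had a start peak in 1 library (31.2 RPM), and MF(ALPHA)2, SAG1 and STE3 had none. STE3, the receptor for a-factor in alpha cells, starts 31723 bp left of the insertion, and since BAR1 was also without a peak its missing peak is weak evidence on the strain.

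The insertion lies directly before base 146351 of chromosome XI, between PIR3 on the left and YKL162C on the right. The left homology arm of the landing pad starts at base 146136 and ends at the insertion (215 bp), the right arm covers bases 146508 to 146829, and both arms equal the reference sequence. The 157 bp between the arms (bases 146351 to 146507) are replaced in integrated strains. YKL162C-A has no entry of its own in the annotation used. The replaced bases are shown because they are the native sequence present in episome strains and absent from integrated strains. No library of either kind had a peak over them.
Replaced bases, chrXI:146351-146507, forward strand: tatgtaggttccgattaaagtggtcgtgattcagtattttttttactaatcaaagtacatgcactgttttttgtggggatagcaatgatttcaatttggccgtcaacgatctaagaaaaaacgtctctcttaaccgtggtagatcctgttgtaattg
The 300 bp that end 1 base left of the insertion are shown as the reverse strand, which is read away from the locus and towards PIR3. Capitals mark the stretch between the outermost 5′ ends of the peaks called there.
Junction, chrXI:146050-146349, reverse strand: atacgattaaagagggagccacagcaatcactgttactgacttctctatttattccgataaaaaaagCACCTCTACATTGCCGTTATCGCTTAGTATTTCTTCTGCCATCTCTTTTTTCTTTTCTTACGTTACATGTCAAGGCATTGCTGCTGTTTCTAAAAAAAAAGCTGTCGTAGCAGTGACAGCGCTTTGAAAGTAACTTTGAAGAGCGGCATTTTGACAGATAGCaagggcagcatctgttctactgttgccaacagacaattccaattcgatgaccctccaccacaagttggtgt

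Transcription start sites directly at the junction were called in every integrated library and in no episome library. The region spans bases 145916 to 146282 on the reverse strand, ends in the sequence printed above, and lies downstream of PIR3 in the opposite orientation to that gene. Its height was 38.1 and 39.8 RPM in HPRT1 integrated replicates 1 and 2, and 124 and 68.4 RPM in HPRT1R integrated replicates 1 and 2. The mean over the 4 integrated libraries was 67.5 ± 39.9 RPM (SD, n = 4), and both HPRT1R values were above both HPRT1 values, a difference that was not tested. In episome libraries no peak was called, where the lowest reverse-strand peak of the library was 14.1 to 14.6 RPM. The lowest junction height was 2.61 times the highest of these limits. A peak is called against its background, so the limit describes what was called elsewhere in the library and is not an upper bound at this site.

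The 5′ ends at the junction differed between libraries. They lay 229 and 219 bp from the insertion in HPRT1 integrated replicates 1 and 2, and 68 and 173 bp from it in HPRT1R integrated replicates 1 and 2. The peaks in the HPRT1 libraries began at bases 146121 and 146131 and therefore lay outside the left homology arm, whereas those in the HPRT1R libraries began inside it. Over the whole genome, 14 of 6963 regions (0.201%) were called in all 4 integrated and no episome library, and 10 (0.144%) in all 4 episome and no integrated library. Of the 57 regions near the insertion, 1 fell in the former class, the junction region, and 0 in the latter. The fold enrichment was 3.69 and 3.85 in the HPRT1 libraries and 12.0 and 6.73 in the HPRT1R libraries, so that a minimum fold of 4 left the call in only the 2 HPRT1R libraries. With that minimum, a different region, antisense to the 3′ end of NNR2, was the one called in all 4 integrated libraries and no episome library.

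**Figure D1:**
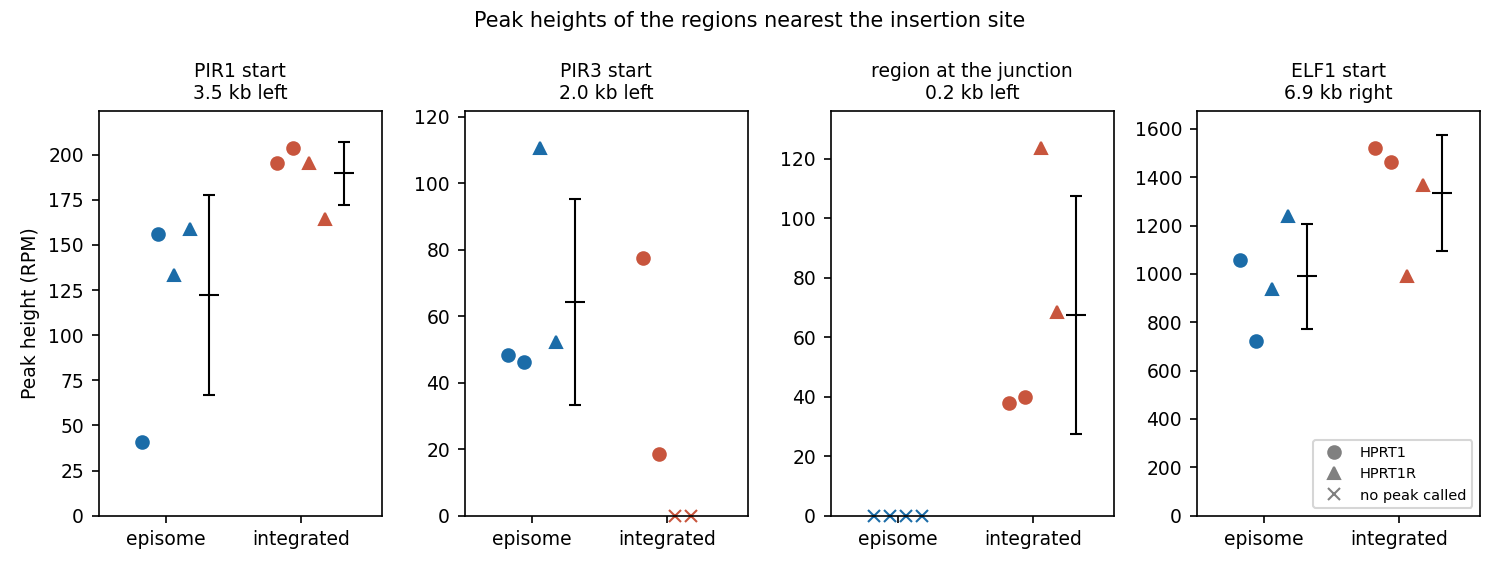
Peak height (RPM, vertical axis) of the 3 left regions closest to the insertion that were called in at least 4 libraries, and of the nearest gene start on the right. Points are libraries (circles HPRT1, triangles HPRT1R, crosses no peak called, drawn at 0 and not a measured 0), and bars give the mean ± SD where all 4 libraries had a peak. The junction region has 4 points from 38.1 to 124 RPM in the integrated context and 4 crosses in the episome context.

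On the locus side of the junction, distances were read from the lists in which the locus lies within chromosome XI. The closest synthetic peak that pointed the same way, on the reverse strand, began 455 and 2434 bp into the locus in HPRT1R integrated replicates 1 and 2. In the HPRT1 libraries it began 4559 and 4532 bp into the locus. The heights of those 4 peaks were 35.5, 54.8, 302 and 236 RPM in the same order. On the forward strand, pointing into the locus, the first synthetic peak began 262 and 36 bp into it in HPRT1R integrated replicates 1 and 2 (20.6 and 20.7 RPM). In HPRT1 integrated replicates 1 and 2 it began 724 and 4986 bp into the locus (19.5 and 66.6 RPM). Junction heights were thus given by peaks whose 5′ ends lay in native sequence in all 4 libraries, and no called peak crossed the boundary.

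PIR1 and PIR3, both within 5 kb left of the insertion, encode cell wall glycoproteins with internal repeats that are attached to the wall's glucan. The genes are transcribed away from each other, PIR1 on the reverse strand (bases 141794 to 142819) and PIR3 on the forward strand (bases 144401 to 145378). Their upstream sequences are shown because the starts used in these strains can be read on them. Each runs from 250 bases before the start codon to 50 after its first base, with capitals between the outermost called 5′ ends.
PIR1, chrXI:142770-143069, reverse strand: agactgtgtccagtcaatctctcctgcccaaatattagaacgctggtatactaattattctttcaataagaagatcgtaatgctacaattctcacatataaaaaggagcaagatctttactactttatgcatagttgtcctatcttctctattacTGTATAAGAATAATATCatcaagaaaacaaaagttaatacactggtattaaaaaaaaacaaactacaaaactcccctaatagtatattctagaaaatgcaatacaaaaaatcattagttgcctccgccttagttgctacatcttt
PIR3, chrXI:144151-144450, forward strand: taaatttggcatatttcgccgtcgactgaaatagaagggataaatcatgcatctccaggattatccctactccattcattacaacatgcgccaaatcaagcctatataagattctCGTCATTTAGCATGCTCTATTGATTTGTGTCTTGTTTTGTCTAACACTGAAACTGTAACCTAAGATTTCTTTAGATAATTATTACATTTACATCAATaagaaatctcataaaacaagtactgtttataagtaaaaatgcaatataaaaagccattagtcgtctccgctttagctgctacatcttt

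The first 50 coding bases of both genes were identical at 43 positions (86%), whereas the 250 bases before the start codons were identical at 76 (30.4%) when aligned by position without gaps. The longest stretch shared by the coding sequences was 81 bp, so reads within the genes can match both and their heights are uncertain to that extent. The core letters of a TATA box (TATAAA) occurred 154 bp before the PIR1 start codon on the gene's own strand. In the PIR3 window the same letters occurred only close to the start codon. Only these exact letters were searched, so related sequences, such as tatataag shortly before the capitals of PIR3, were not counted. Either strand of 2714 of 6001 promoter windows of this length (45.2%) holds these letters, so the match is a description of the sequence.

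The PIR1 start was taller in every integrated library than in any episome library, with 164 against 159 RPM at the closest. Its height was 41.0 and 156 RPM in HPRT1 episome replicates 1 and 2, 134 and 159 RPM in HPRT1R episome replicates 1 and 2, 195 and 204 RPM in HPRT1 integrated replicates 1 and 2, and 196 and 164 RPM in HPRT1R integrated replicates 1 and 2. Means were 122 ± 55.5 RPM (SD, n = 4) for the episome and 190 ± 17.4 RPM (SD, n = 4) for the integrated context, and the lowest value, HPRT1 episome replicate 1, widened the episome spread. The groups did not overlap at PIR1, 1 of the 11 regions here that were called in all 8 libraries, beside 11.4% of all 1284 such regions in the genome. In the limma fit over all 1284 regions the ratio was 1.75 (95% interval 0.966 to 3.17, adjusted p = 0.321), which did not pass the threshold of 0.05. Without HPRT1 episome replicate 1, the log2 difference fell from 0.81 to 0.32. With all libraries centred on their median it was 0.69 (limma adjusted p = 0.451).

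The PIR3 start was called in all 4 episome libraries and in 2 of the 4 integrated libraries. Its height was 48.2 and 46.2 RPM in HPRT1 episome replicates 1 and 2, and 111 and 52.3 RPM in HPRT1R episome replicates 1 and 2. HPRT1 integrated replicate 1 gave 77.4 RPM and replicate 2 gave 18.7 RPM, and the HPRT1R integrated libraries had no peak there. Among called libraries the groups overlapped. Both HPRT1R integrated libraries had a weak forward peak further upstream, between PIR1 and PIR3, of 16.8 RPM in replicate 1 and 16.9 RPM in replicate 2. Those peaks began at bases 143650 and 143853 and did not overlap each other. HPRT1R episome replicate 2 had a further peak of 29.6 RPM within PIR3 itself.

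On the right, no peak was called in any library for more than 5 kb. YKL162C, an uncharacterised gene that starts 2488 bp from the insertion, had no start peak, and neither had KDX1, a kinase gene of the cell wall stress pathway that starts 4337 bp away. The first region on this side, on the reverse strand between KDX1 and ELF1 (bases 152298 to 152576), was called in HPRT1 integrated replicate 2 at 26.4 RPM and in HPRT1R integrated replicate 1 at 18.7 RPM, and in no other library. ELF1, which encodes a transcription elongation factor, had the nearest peak called in all libraries. Its start lay 6885 bp from the insertion, with 1057, 722, 936 and 1242 RPM in the episome libraries (HPRT1 replicates 1 and 2, then HPRT1R replicates 1 and 2) and 1520, 1462, 989 and 1368 RPM in the integrated libraries in the same order. The groups overlapped through HPRT1R integrated replicate 1. The fitted ratio was 1.36 (95% interval 1.02 to 1.80, limma adjusted p = 0.245). ELF1 was the 1 region of 11 with an unadjusted p under 0.05, beside 226 of 1284 regions in the genome. Such a p is therefore no more frequent here than elsewhere. The ELF1 difference depended on the scaling, since the log2 difference of 0.44 was 0.32 with libraries centred on their median (limma adjusted p = 0.468, interval including 0). With the authors' fold it was 0.012 (limma adjusted p = 0.820). No fold in any list exceeded 49.99, and at this start the fold varied little (SE 0.0148, against 0.195 for height). The fold therefore cannot decide whether the heights differ.

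Within 50 kb of the insertion, episome libraries had 26, 26, 25 and 31 peaks and integrated libraries 29, 34, 30 and 28 peaks, in the same order of libraries. The groups overlapped, with means of 27.0 ± 2.71 and 30.2 ± 2.63 (SD, n = 4 each). The native genome as a whole also had slightly more peaks in integrated libraries, 27.4 ± 1.11 against 26.0 ± 0.367 per 100 kb window (SD, n = 4 each). Relative to the native mean of the same library, density near the insertion was 1.11 ± 0.121 in integrated and 1.04 ± 0.0892 in episome libraries (SD, n = 4 each). The ratio of 1.06 did not exceed the variation among replicates (two-sided exact permutation test, p = 0.40, adjusted over 7 tests p = 0.700, smallest p possible 0.0286). Averaged over all libraries the stretch held 28.6 peaks, against a median of 26.5 and a range of 13.1 to 47.8 over 1056 native windows of 100 kb.

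**Figure D2:**
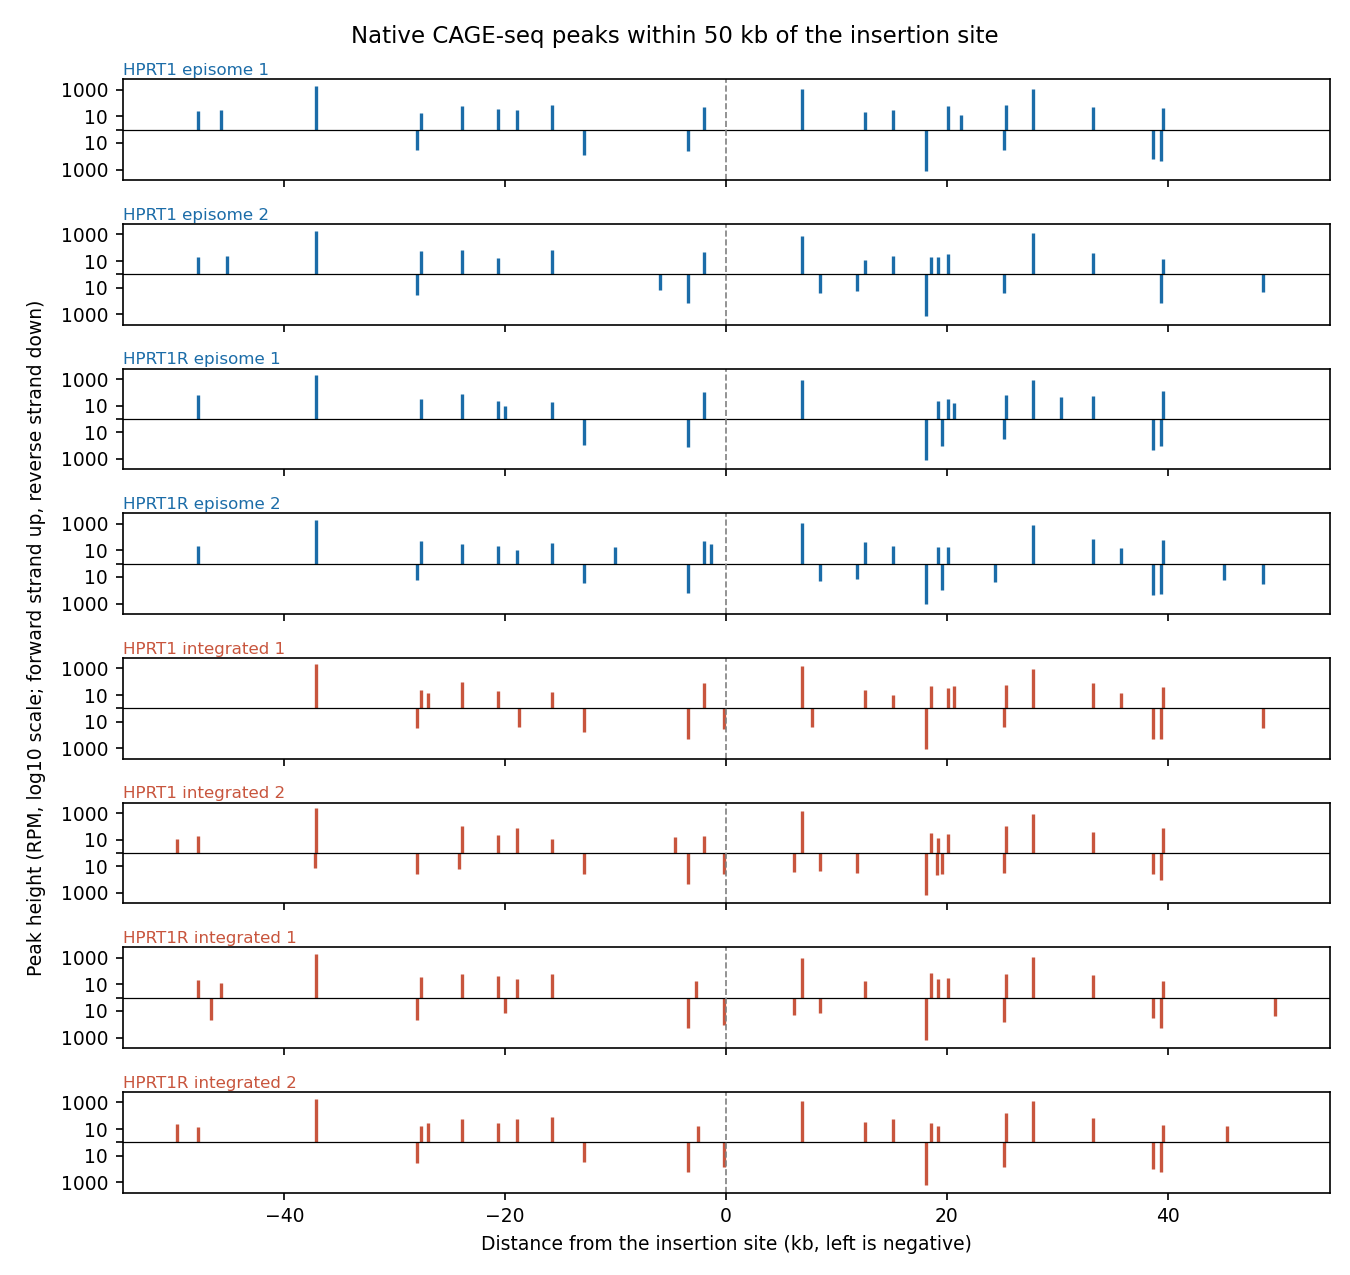
Native regions within 50 kb of the insertion in each library, by distance from the insertion (kb, horizontal axis) and height (RPM, log10 axis, forward strand upwards and reverse strand downwards). Each line is the tallest peak of a region. The 4 tallest regions (RPL17A, GPM1, ELF1 and RPT1, all at 722 RPM or more) stand at the same places in all 8 libraries, and the reverse-strand line at distance 0 appears only in the 4 integrated libraries.

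The left side held 12, 11, 10 and 13 peaks in episome libraries and 12, 15, 14 and 14 in integrated libraries. Relative left density was 0.885 ± 0.0874 and 1.00 ± 0.0861, a ratio of 1.14 (exact permutation test, n = 4 against 4, p = 0.143, adjusted p = 0.667). On the right side there were 14, 15, 15 and 18 peaks in episome libraries and 17, 19, 16 and 14 in integrated libraries, a ratio of relative densities of 1.01 (exact permutation test, p = 0.943, adjusted p = 1). The left over right ratio did not pass the test either (0.745 ± 0.0803 for episome, 0.843 ± 0.126 for integrated, exact permutation test with n = 4 each, p = 0.286, adjusted p = 0.667). On the reverse strand alone, left density was 1.72 times higher in integrated libraries with the smallest p the design allows (exact permutation test, unadjusted p = 0.0286). Without the junction peaks, an alternative chosen after seeing the data, this ratio was 1.37, and the ratio for both strands was 1.05. Those peaks were called in integrated libraries only, so leaving them out lowers both ratios by construction. It is no test of the remaining peaks.

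By distance, integrated libraries had 3.25 ± 0.50 peaks within 10 kb on the left against 2.5 ± 0.577 in episome libraries, which includes 1 junction peak in each integrated library. Within 10 kb on the right the means were 2.25 ± 0.957 and 1.5 ± 0.577 (SD, n = 4 each). Differences between contexts in the 6 bins (10, 15 and 25 kb wide outwards from the insertion on each side) ranged from 0.75 fewer to 1.00 more peaks in integrated libraries. None of the 6 passed an exact permutation test (lowest unadjusted p = 0.286, 0 under 0.05, lowest adjusted p = 0.600). Peaks within 10 kb made up 18.0 ± 2.89% of the neighbourhood in integrated and 14.7 ± 3.64% in episome libraries (exact permutation test, n = 4 each, p = 0.20, adjusted p = 0.667), a difference of 3.30 percentage points that was 0.480 without the junction peaks. Leaving these out lowers the integrated share by construction. Strains with HPRT1R and HPRT1 did not separate in total density either (ratio 0.963, exact permutation test, p = 0.600, adjusted p = 0.840).

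**Figure D3:**
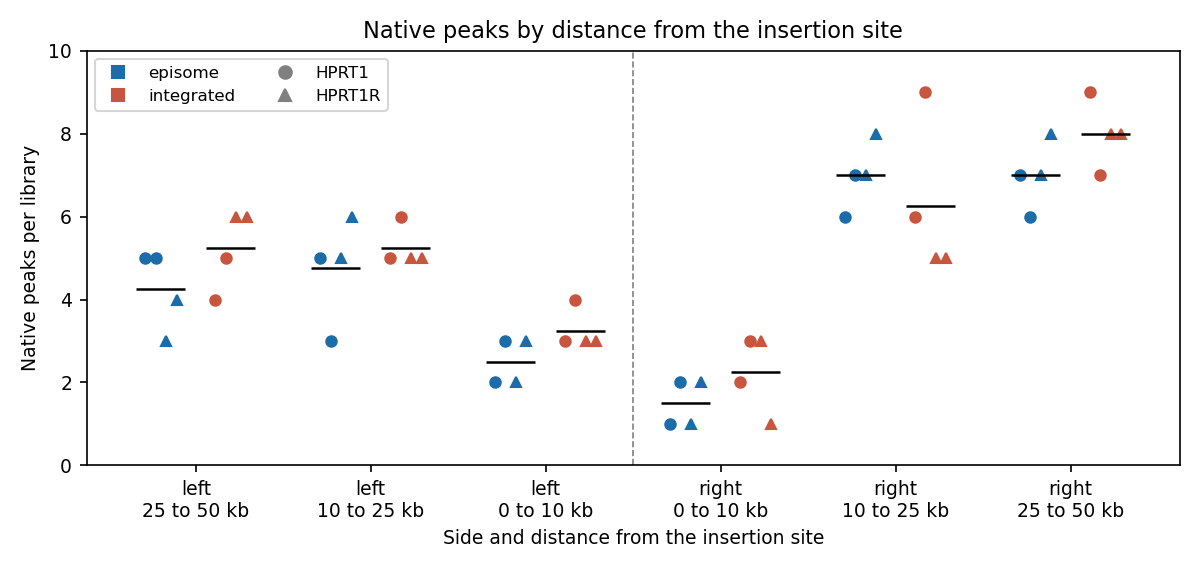
Native peaks per library (vertical axis) by side and distance from the insertion. Points are libraries, blue for episome and red for integrated, and black lines are means of 4 libraries. The bins widen outwards (0 to 10, 10 to 25 and 25 to 50 kb), so counts are to be compared within a bin. Contexts overlap in all 6 bins, with 1 to 4 peaks per library in those next to the insertion.

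The starts shared by all libraries belonged to genes. Of the 57 regions, 31 lay at gene starts, here taken as 500 bp before to 100 bp after the first base of the gene on its strand, 11 lay within a gene in the sense direction, 7 antisense within a gene, and 8 between genes. All 11 regions called in all 8 libraries were at gene starts, and 21 regions (36.8%) were called in a single library, against 39.6% of regions in the genome. The forward strand held 63.8 ± 5.97% of peaks here and 54.7 ± 1.32% in the native genome (SD, n = 8 each).

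A start peak was found in 20 to 24 of the 50 protein-coding genes in any given library. Integrated and episome libraries had the same mean of 22.0 genes (SD 1.41 and 1.83, n = 4 each, exact permutation test, p = 1). This is 44.0 ± 3.02% of genes near the insertion, beside 40.9 ± 1.54% of the 6002 protein-coding genes of the nuclear genome (SD, n = 8 each). Over the libraries, 11 genes had a start peak in all 8 (22%, beside 20.5% of genes in the genome), 20 in some and 19 in none (38%, beside 33.9% in the genome).

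Of the 11 start regions called in all libraries, 0 passed an adjusted p of 0.05 for a height difference between contexts, where 46 of 1284 regions in the genome did (3.58%, 20 higher and 26 lower in integrated libraries). The median difference was 0.07 on the log2 scale over the 11 and 0.14 over all 1284, and 8 of the 11 were higher in integrated libraries. The share of all 1284 that were higher was not counted, but a median above 0 means that most of them were higher too. The count over the 11 is therefore no sign of a lean particular to this stretch. With libraries centred on their median, 5 of the 11 were higher, and the medians were −0.041 over the 11 and 0.02 over all. Intervals differed in width with the height of the peak. The upper ends of the intervals of RPL17A, ELF1, GPM1 and RPT1 were 1.21 to 1.80, whereas for MRPL38 and CMC1 the intervals ran from 0.296 to 1.93 and from 0.269 to 1.81.

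**Figure D4:**
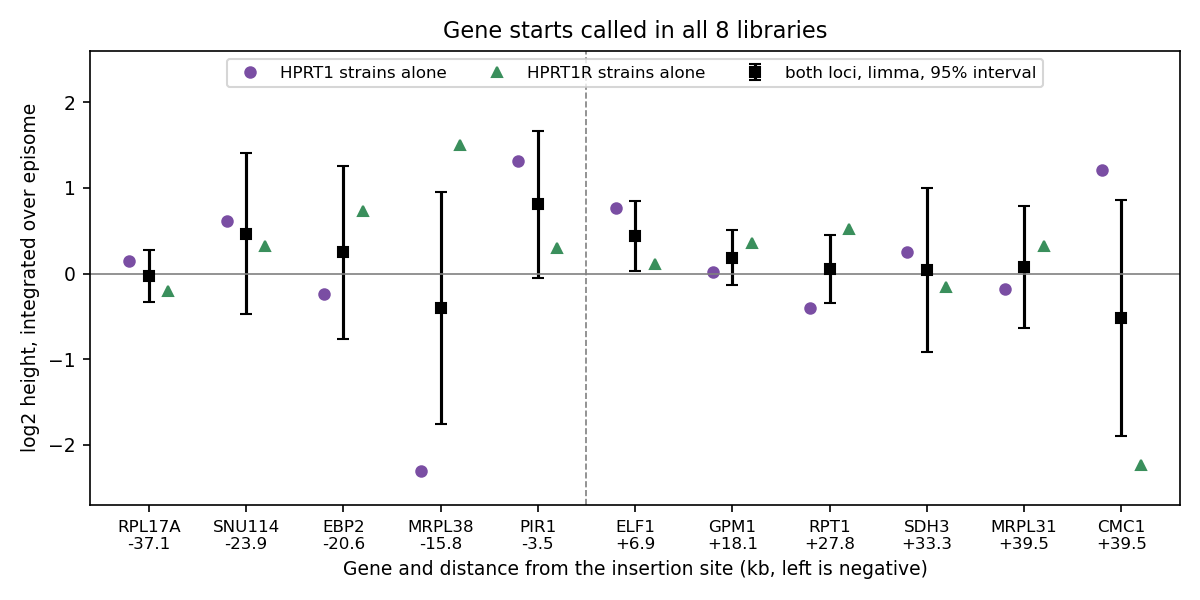
Height in integrated over episome libraries (log2, vertical axis) for the 11 gene starts called in all 8 libraries, in order of distance from the insertion (kb). Squares with bars are the limma estimates with 95% intervals, circles and triangles are differences of the mean log2 height within HPRT1 and HPRT1R strains (2 against 2 libraries). Of the 11 intervals, 10 include 0 (the exception is ELF1), and for 7 of the 11 starts the circle and the triangle lie on opposite sides of 0.

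Among genes for making proteins (6 listed, 2 with a start peak in all libraries, 2 in some, 2 in none), RPL17A, a protein of the large ribosomal subunit, had the tallest start of the stretch. It gave 2094, 1828, 2223 and 2037 RPM in episome libraries and 2039, 2313, 1904 and 1788 RPM in integrated libraries, with overlapping groups and a ratio of 0.981 (95% interval 0.796 to 1.21, limma adjusted p = 0.946). Its reads may be shared with the near-identical copy RPL17B. EBP2, needed for ribosomal RNA processing, was low in all libraries (15.5 to 41.1 RPM). YKL154W, which encodes a subunit of the signal recognition particle receptor, was called in 5 libraries (9.29 to 60.0 RPM) and LTV1, a ribosome assembly factor, in 1 (48.3 RPM). RPC25, a subunit of RNA polymerase III, had no peak. RPS27A had none in its start window, but a peak began at base 158956, at the edge of its second coding exon (base 158967), in 6 libraries with 11.3 to 39.5 RPM. The first coding exon of RPS27A is 3 bp long, and reads had been aligned by bowtie2, which does not split reads over introns. Whether this bears on the missing start peak or on the peak at the exon edge was not tested.

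Mitochondrial genes (9 listed) had a start peak in all libraries for 4, in some for 3 and in none for 2. MRPL31, a mitochondrial ribosomal protein, gave 108 to 211 RPM in episome and 116 to 206 RPM in integrated libraries, with a ratio of 1.05 (limma adjusted p = 0.941). SDH3, a membrane subunit of succinate dehydrogenase, gave 40.8 to 74.2 RPM and 36.0 to 78.4 RPM, a ratio of 1.03 (limma adjusted p = 0.974). SDH1, the flavoprotein subunit of the same enzyme, was called in 7 libraries. Its height was 31.3, 26.4 and 32.3 RPM in the 3 episome libraries with a peak and 24.4, 32.7, 67.2 and 71.3 RPM in the integrated libraries, so both HPRT1R integrated libraries were above the remainder. MCR1, a mitochondrial cytochrome b5 reductase, was called in 7 libraries at 17.6 to 55.3 RPM and OCT1, a peptidase that processes imported proteins, in 1. MRP49 and RSM22, both linked to the mitochondrial ribosome, had no start peak.

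MRPL38, a further mitochondrial ribosomal protein, and CMC1, which helps to assemble cytochrome c oxidase, varied more within a context than between contexts. MRPL38 was 73.0 and 70.5 RPM in HPRT1 episome replicates 1 and 2 and 17.8 and 11.8 RPM in HPRT1 integrated replicates, but 18.3 and 33.9 RPM in HPRT1R episome and 64.3 and 77.2 RPM in HPRT1R integrated replicates. CMC1 was 44.1 and 13.1 RPM in HPRT1 episome, 39.1 and 78.4 RPM in HPRT1 integrated, 122 and 64.03 RPM in HPRT1R episome and 17.3 and 20.3 RPM in HPRT1R integrated replicates. MRPL38 and CMC1 had adjusted p = 0.824 and 0.746 in the limma fit of context. CMC1 and MRPL31 are transcribed divergently from a shared upstream region.

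In central metabolism and lipid synthesis (4 genes), GPM1, the glycolytic phosphoglycerate mutase, gave 1402, 1367, 1146 and 1130 RPM in episome and 1255, 1558, 1422 and 1500 RPM in integrated libraries. The groups overlapped, with a ratio of 1.14 (95% interval 0.910 to 1.42, limma adjusted p = 0.568). FAS1, the beta subunit of fatty acid synthase, had a start peak in 1 episome library (27.8 RPM) and 1 integrated library (13.7 RPM), and PRS1 and TGL1 had none. MCD4, an enzyme of GPI anchor synthesis 5659 bp left of the insertion, had no start peak.

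Kinase and signalling genes (8 listed) had a start peak in all libraries for none and in some for 4. LST4, a regulator of amino acid signalling, was called in 7 libraries at 16.5 to 49.8 RPM, and KKQ8, a putative kinase, in 6 at 28.7 to 83.8 RPM. NNK1, a kinase linked to nitrogen metabolism, was called in 5 libraries, at 28.6 and 10.3 RPM in the episome and 73.4, 23.5 and 52.9 RPM in the integrated context. RCN1, a regulator of calcineurin, was called in 2 libraries of each context at 15.1 to 26.8 RPM. TPK3, CTK1, KDX1 and STE3 had none. Of 5 transport genes, ZRT3, a vacuolar zinc exporter that diverges from LST4, was called in 7 libraries (17.2 to 53.2 RPM). AVT3, a vacuolar amino acid transporter, was called in 2 episome libraries (70.1 and 68.1 RPM) and all 4 integrated libraries (60.4, 101, 60.5 and 163 RPM), and TPO5, a polyamine transporter, in 1 library. COY1 and APL2, both of vesicle traffic, had none.

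RPT1, an ATPase of the proteasome cap, was the only one of 50 promoter windows here with the motif GGTGGCAAA, the proteasome-associated control element recognised by Rpn4. Over all promoter windows, 72 of 6001 (1.2%) hold it on either strand. It is shown because RPT1 was one of the 4 tallest starts and its contexts differed in opposite directions in HPRT1 and HPRT1R strains. Capitals mark the motif, which lies on the opposite strand 155 bp before the start codon.
RPT1, chrXI:173963-174262, forward strand: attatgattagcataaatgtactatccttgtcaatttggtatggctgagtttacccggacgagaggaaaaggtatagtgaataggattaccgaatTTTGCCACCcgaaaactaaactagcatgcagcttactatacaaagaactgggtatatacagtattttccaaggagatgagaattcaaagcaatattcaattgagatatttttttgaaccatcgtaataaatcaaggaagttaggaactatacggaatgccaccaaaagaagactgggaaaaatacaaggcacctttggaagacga
RPT1 gave 1190 and 1282 RPM in HPRT1 episome and 927 and 937 RPM in HPRT1 integrated replicates, but 849 and 862 RPM in HPRT1R episome and 1253 and 1201 RPM in HPRT1R integrated replicates. Over both loci the ratio was 1.04 (95% interval 0.791 to 1.37, limma adjusted p = 0.918). APE2, an aminopeptidase, had no start peak, though an antisense peak within it was called in 3 libraries.

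Outside these lists, SNU114, a GTPase of the spliceosome, was called in all libraries at 28.7 to 76.2 RPM in the episome and 56.0 to 102 RPM in the integrated context (ratio 1.38, 95% interval 0.719 to 2.65, limma adjusted p = 0.649). HSK3, a subunit of a kinetochore complex, was called in 7 libraries, at 151, 219 and 222 RPM in the episome and 191, 41.3, 36.9 and 98.1 RPM in the integrated context. HPRT1 episome replicate 2 had no peak there, so it has no place in a comparison of heights. Among libraries with a peak, all integrated values but that of HPRT1 replicate 1 were below the lowest episome value. The episome library without a call may lie lower still, so the contexts cannot be said to separate. In a limma fit of regions called in at least 2 libraries of each context, the HSK3 log2 difference was -1.43 (adjusted p = 0.084). NNR2, an enzyme that repairs damaged NADH, had a start peak in 3 libraries. A forward-strand region antisense to its 3′ end (bases 164922 to 165142) was called at 50.7, 32.8, 73.8 and 27.4 RPM in the integrated libraries and at 21.2 RPM in HPRT1 episome replicate 2 alone. The other 3 episome libraries had no call, so a comparison of heights would rest on 1 episome value, and this region was chosen after its values were seen.

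The choice of reference made little difference. Of the 229 peaks called with the locus as a separate sequence, all 229 overlapped a peak on the same strand in the lists made with the locus inside chromosome XI, after positions right of the insert were moved by 100578 bp, and 225 had identical boundaries. Heights differed by at most 0.204%. The junction region had the same 5′ ends in both sets of lists.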

How the data were processed

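CAGE-seq peak lists of 8 libraries were used. The authors aligned the 5′ read of each pair to sacCer3 with the locus added, either as a separate vector sequence or within chromosome XI (bowtie2 2.2.9), and called peaks for each library and strand with MACS2 2.1.0, without a control library and without pooling replicates. Versions are those in the submitters' processing notes. The lists hold a score deposited by the authors (10 times −log10 q), the fold enrichment, a ratio of summit pileup to local background deposited by the authors, the −log10 of the p and of the q value as the authors deposited them, and the summit position.

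Pileup and background were solved from fold and p with a 200 bp extension and a genome size of 12000000 bp. The solved pileup differed from a whole number by under 0.05 in 100% of 45253 peaks below 2000 reads. The starts of RPL17A, GPM1, ELF1 and RPT1 were above that limit in every library, so their heights lay outside this check. Aligned reads came from the lowest background of a library. Reads carried no molecular identifiers. R64 genes and sequences are from RefSeq. Lists with the separate sequence were used throughout.

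Densities, shares and gene counts were compared over 4 against 4 libraries by exact two-sided permutation (70 splits), adjusted over 7 tests by Benjamini-Hochberg. Heights of the 1284 regions called in all libraries were compared with limma 3.58.1 (R 4.3.3) on log2 RPM with locus and context as terms, adjusted over all 1284. Scripts were tested on simulated data (Python 3). Members and gene lists were chosen with earlier results of these data known. Genes were named if within 5 kb of the insertion, past the test (up to 15 in each direction), called in all 4 libraries of a single context and none of the other, among the 5 tallest starts of a side, or in the lists. NNR2 and the nearest region right of the insertion were chosen after their values were seen. Alternatives are given in the closing section.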

Additional observations from a re-analysis of the deposited data

Results flagged for a closer look

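The number of native peaks within 50 kb of the insertion was 31 in HPRT1R episome replicate 2, far above the 25, 26 and 26 of the other episome libraries by Dixon's criterion for 4 values. Of 43 groups of 4 libraries examined in this way, 1 stood out, and chance alone gives about 1 in 20.

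At the starts of MRPL38 and RPT1, all integrated libraries lay on one side of the episome libraries in HPRT1 strains and on the other side in HPRT1R strains. Such a split was found in 2 of the 11 starts called in all libraries, beside 6% of the 1284 regions of the genome. The difference between the context effects of the loci, fitted with limma after seeing the data, was 3.81 on the log2 scale for MRPL38 (SE 0.906, adjusted p = 0.310) and 0.927 for RPT1 (SE 0.269, adjusted p = 0.340). For CMC1, where the contexts overlapped in HPRT1 strains, this difference had the opposite sign (-3.44, SE 1.05, limma adjusted p = 0.381). Over all 1284 regions, 0 differences passed an adjusted p of 0.05 (0%), although 115 had an unadjusted p under 0.05. Among the 11 starts here, 3 did, namely MRPL38, RPT1 and CMC1. All 3 therefore fail the correction, with 2 libraries in each group. With the fold of the authors in place of the height, the RPT1 difference was 0.05 (SE 0.077). The fold, at most 49.99 in any list, varied little at this tall start, so that value cannot decide whether the heights split.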

How the results depend on the processing

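Counts near the insertion are small, and ratios close to 1 changed side with several choices without passing the test. With the locus inside chromosome XI the right-side ratio was 0.991. A minimum fold of 4 gave 0.997 for the whole stretch, 0.80 for the left side, 0.695 for left over right, −2.96 points for the share within 10 kb and 1.15 for HPRT1R over HPRT1 (exact permutation p from 0.171 to 0.971). Merging peaks under 500 bp apart gave 0.988 on the right, a 25 kb window 0.927 on the right, the forward strand alone 0.995 for the whole stretch and 0.951 on the left, and the reverse strand alone 1.72 on the left and 0.950 on the right. Leaving out 1 library at a time gave 1.02 to 1.11 for the whole stretch, 1.09 to 1.18 for the left, 0.954 to 1.08 for the right, 1.06 to 1.19 for left over right, 2.24 to 4.81 points for the near share, −0.667 to 0.667 gene starts and 0.928 to 1.01 for HPRT1R over HPRT1. The call in the junction region held in 2 integrated libraries at a minimum fold of 4, and joining peaks by 5′ ends within 50 bp, where 3 of the 4 junction peaks stay together, left 0 regions called in all 4 libraries of one context and none of the other. No height difference near the insertion passed the test under any alternative run, but with the authors' fold the count over all regions was 0 in place of 46. Centring libraries on their median moved the median of all regions from 0.14 to 0.02 (log2). Signs changed with the authors' fold for RPL17A (0.0023), RPT1 (−0.048) and SDH3 (−0.058), and with centring for RPT1 (−0.059), SDH3 (−0.071) and MRPL31 (−0.041). At the tall starts RPL17A and RPT1 the fold varied little (SE 0.0118 and 0.0372), so their signs with the fold say little about height. Without 1 library, log2 differences ran from −0.10 to 0.033 for RPL17A, −0.96 to 0.095 for MRPL38, −0.048 to 0.17 for RPT1, −0.22 to 0.23 for SDH3, −0.16 to 0.29 for MRPL31 and −1.21 to 0.014 for CMC1. The cause was not tested for any of these.

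Replicate numbers did not pair the libraries (correlations of deviations between same-numbered libraries −0.072 to 0.017), and with replicate number as a replicate block the whole-stretch ratio of 1.06 had an exact permutation p of 0.389.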
